A study of Mus musculus with 12 samples.

Results

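The genes described here encode the receptors through which CD4+ T cells sense interleukin 12 (IL-12), interleukin 18 (IL-18) and interferon gamma, with the IL-33 receptor chain that shares the IL-18 receptor's family and the transcription factor STAT4. They were taken by symbol from the deposited count table: Il12rb1, Il12rb2, Il18r1, Il18rap, Il1rl1, Stat4, Ifngr1 and Ifngr2, which is 8 of 43626 genes. All 8 were found, and all 8 passed the filter on low counts. RNA was sequenced from CD4+ T cells of 6 recipient mice. In the donors of the transferred cells, 1 copy of Eomes was loxP-flanked (flox) and the other carried green fluorescent protein (GFP), so GFP marks cells in which the locus of this T-box factor is active. Donors without cre are called Het and donors with Lck-cre, whose Lck promoter drives cre in T cells, are called KO; all donors shared the GFP allele. Naive splenic CD4+ T cells (CD45RBhi CD25-) were given to adult male Rag2-/- mice, hosts that lack T and B lymphocytes but keep NK and myeloid cells. After 3 weeks the spleens were sorted into GFP+ and GFP- CD4+ cells, giving 4 groups of 3 libraries, called here GFP- Het, GFP+ Het, GFP- KO and GFP+ KO. Per the design text, both sorts of one genotype that carry the same replicate number came from 1 recipient, so each difference between the sorts can be read within a mouse.

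IL-12 binds a receptor of 2 chains. IL-12Rβ1, from Il12rb1, is shared with the IL-23 receptor and recruits the kinase TYK2, while IL-12Rβ2, from Il12rb2, is the signalling chain that recruits JAK2 and carries the docking site for STAT4. IL-18 binds IL-18Rα, from Il18r1, which then pairs with the accessory chain from Il18rap and signals through MYD88. T helper 1 cells respond to both cytokines together with high interferon gamma output, and interferon gamma acts back on cells through IFNGR1, the ligand-binding chain, and IFNGR2, the chain that brings in JAK2 and whose low level restricts the response of T cells. Il1rl1 encodes ST2, the receptor of IL-33, best known on T helper 2 cells, regulatory T cells, mast cells and innate lymphoid cells, and also induced on T helper 1 cells.

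Library totals ran from 2116894 to 18167236 counts, and GFP+ libraries were made from fewer cells (18000 to 117000) than GFP- ones (645000 to 2100000). In replicate 2 of both GFP+ groups, 4 features took 58.3% and 54.3% of the counts, against 16.3% to 30.9% in the other libraries. Eomes had 2.15 to 9.18 CPM (counts scaled to a common library size with TMM factors) in GFP- Het, 89.7 to 123 CPM in GFP+ Het, 1.94 to 4.72 CPM in GFP- KO and 31.5 to 46.6 CPM in GFP+ KO libraries. These are counts over the whole gene, so they do not show whether its deleted part was read. All 6 CD4 T cell markers were counted in every library, but their sum was lower in the GFP+ sorts: 1857 to 2293 CPM in GFP- Het, 1221 to 1480 in GFP+ Het, 1908 to 2063 in GFP- KO and 1292 to 1629 CPM in GFP+ KO libraries. Cd4 (-0.76) and Cd5 (-0.71) were called lower between the Het sorts (edgeR), and a fit with the recipient as a block called 4 of 6 lower there and 3 of 6 lower between the KO sorts. That fit called 22.2% and 17.7% of all tested genes in these comparisons. Cd3e did not fall, with 0.28 between the Het sorts and 0.0043 between the KO sorts, neither called. The 3 erythroid markers summed to 3.06 to 31.3 CPM in GFP- Het, 14.6 to 76.1 in GFP+ Het, 12.5 to 66.7 in GFP- KO and 40.1 to 150 CPM in GFP+ KO libraries, and the block called all 3 higher in the GFP+ sort of both genotypes. CD8 T markers reached at most 4.56 CPM and B cell markers at most 2.12 CPM.

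The windows around the start sites of these genes are shown first, because most members had a sort difference of the same sign in both genotypes, while a pair, Il12rb2 and Il1rl1, did not; Il18rap is printed as a neighbour of Il1rl1. RefSeq sequence on GRCm38.p6 was at hand for 7 of the 8 members; Il12rb1 had no entry. Each window of 300 bases (250 before and 50 after the start site) was searched on both strands for the T-box motif GGTGTGA, its shorter core GGTGTG, which lies inside it, and the STAT site TTCNNNGAA. Of 32544 such windows over all genes, 3.95% held GGTGTGA, 19.0% held GGTGTG and 8.33% held TTCNNNGAA. The 250 bases before the start site are printed 5′ to 3′ on the gene's strand, with matches in capitals.
Il12rb2, chr6:67376189-67376438, minus strand: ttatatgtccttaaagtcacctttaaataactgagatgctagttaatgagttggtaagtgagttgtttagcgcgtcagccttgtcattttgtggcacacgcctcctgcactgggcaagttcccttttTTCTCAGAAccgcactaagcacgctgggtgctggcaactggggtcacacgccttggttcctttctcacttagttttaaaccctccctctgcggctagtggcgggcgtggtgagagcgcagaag
Il1rl1, chr1:40429320-40429569, plus strand: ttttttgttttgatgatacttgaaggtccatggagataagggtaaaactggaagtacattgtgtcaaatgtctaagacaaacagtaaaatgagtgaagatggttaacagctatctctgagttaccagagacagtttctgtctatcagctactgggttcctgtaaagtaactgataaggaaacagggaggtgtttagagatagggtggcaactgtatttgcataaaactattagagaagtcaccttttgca
Ifngr2, chr16:91546809-91547058, plus strand: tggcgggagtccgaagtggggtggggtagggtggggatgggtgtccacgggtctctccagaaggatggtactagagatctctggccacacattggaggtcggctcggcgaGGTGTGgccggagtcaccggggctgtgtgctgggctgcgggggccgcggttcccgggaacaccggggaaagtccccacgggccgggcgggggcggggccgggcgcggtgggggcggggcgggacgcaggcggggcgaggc
Il18rap, chr1:40515112-40515361, plus strand: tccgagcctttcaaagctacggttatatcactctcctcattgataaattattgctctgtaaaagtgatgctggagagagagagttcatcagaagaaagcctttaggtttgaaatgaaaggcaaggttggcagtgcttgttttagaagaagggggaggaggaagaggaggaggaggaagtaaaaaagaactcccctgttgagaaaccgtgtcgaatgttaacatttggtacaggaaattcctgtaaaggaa
The Il12rb2 window held 1 STAT match, 123 bases before the start site, and no T-box match. Ifngr2 held 1 GGTGTG core and no STAT match. Neither motif was present in the windows of Il18rap, Ifngr1, Stat4 (2 start sites) or Il1rl1 (2 start sites). Of the 3 Il18r1 start sites, the one at the 5′ end of the deposited gene held none of the motifs, the next held 1 GGTGTG core, and the third, inside the gene, held 2 STAT matches (TTCTGGGAA and TTCCCAGAA). No member window held GGTGTGA. These matches describe letters in short windows, and nothing about binding was measured.

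Levels differed by orders of magnitude between members, and between chains of 1 receptor for Ifngr1 and Ifngr2. On a scale that can be compared between genes, CPM per kilobase of exon, the mean in GFP- Het cells fell from Ifngr1 (246 ± 87.2, SD, n = 3) through Il18r1 (173 ± 31.4) and Il18rap (123 ± 23.3) to Stat4 (31.7 ± 4.50), Il12rb1 (29.2 ± 8.30), Il12rb2 (18.9 ± 4.99), Il1rl1 (7.98 ± 2.26) and Ifngr2 (0.691 ± 0.445). The libraries of Ifngr1, Il18r1 and Il18rap overlapped their neighbours in this order and lay apart from Stat4, which overlapped Il12rb1, which overlapped Il12rb2. Il1rl1 and Ifngr2 each lay apart from the gene above. Ifngr2 had the lowest mean of the members in every group and rested on only 11 to 134 counts per library, so its values are the least precise. In GFP- KO cells Ifngr1 (189 ± 17.6) lay apart above Il18rap (128 ± 25.0) and Il18r1 (116 ± 18.2), and Il12rb1 (32.1 ± 5.42), Stat4 (29.3 ± 2.47) and Il12rb2 (29.0 ± 6.50) overlapped each other above Il1rl1 (9.26 ± 1.42) and Ifngr2 (0.430 ± 0.286). In GFP+ Het cells Ifngr1 (97.5 ± 24.4), Il18rap (72.4 ± 17.5), Il18r1 (65.9 ± 4.39) and Il12rb1 (44.0 ± 23.0) each overlapped the next, Stat4 (22.1 ± 0.766) and Il12rb2 (11.1 ± 2.46) stood apart, and Il1rl1 (4.32 ± 2.80) overlapped Ifngr2 (2.94 ± 1.47). In GFP+ KO cells the order was Il18rap (120 ± 35.0), Il18r1 (74.5 ± 1.70), Ifngr1 (67.0 ± 37.4), Il12rb2 (39.7 ± 5.48), Il12rb1 (38.5 ± 13.1), Stat4 (23.8 ± 5.17), Il1rl1 (11.1 ± 2.46) and Ifngr2 (1.29 ± 1.30), where the genes from Il18r1 to Stat4 each overlapped the next and Il1rl1 and Ifngr2 stood apart. Il18rap lay above every Il18r1 library, but its range overlapped that of Ifngr1. Il12rb2 thus ranked above Il12rb1 there by mean, with overlapping libraries, whereas in GFP+ Het cells it stood at 11.1 ± 2.46 against 44.0 ± 23.0 for Il12rb1, with no overlap.

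**Figure D1:**
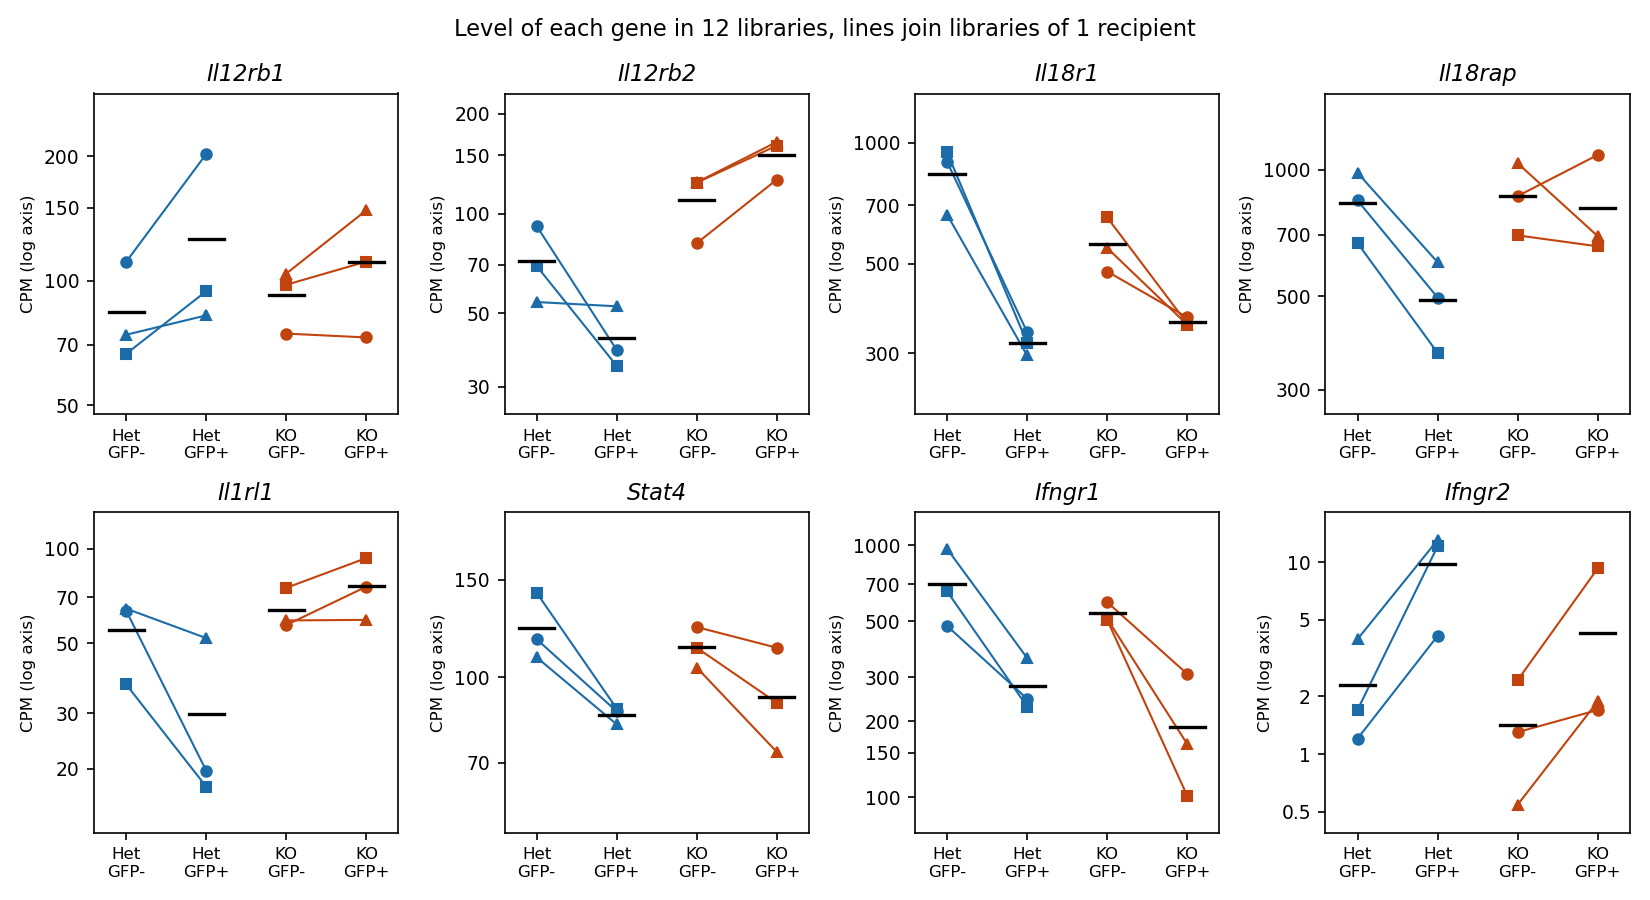
Level of each of the 8 genes in 12 libraries as CPM on a log axis, by genotype and sort; lines join both sorts of 1 recipient (circle, square and triangle are recipients 1, 2 and 3) and black bars are group means. Il12rb2 ran from 34.7 to 52.5 CPM in GFP+ Het and from 127 to 165 CPM in GFP+ KO libraries, and the lines of Ifngr1 and Il18r1 slope down in all 6 recipients.

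Il12rb2, the signalling chain of the IL-12 receptor, was lower in GFP+ Het than in GFP+ KO cells, the comparison that per the design text asks which genes depend on EOMES. Its level was 38.8, 34.7 and 52.5 CPM in the 3 GFP+ Het libraries and 127, 160 and 165 CPM in the 3 GFP+ KO ones. In the GFP- sorts it was 91.7, 69.5 and 54.1 CPM in Het and 81.4, 124 and 124 CPM in KO cells. The 3 GFP+ Het libraries lay below all other libraries, and the 3 GFP+ KO libraries lay above all others, the lowest of them (127 CPM) just above the highest GFP- KO ones (124 CPM). The log2 difference GFP+ Het minus GFP+ KO was -1.83 (SE 0.25, adjusted p = 0.0161, edgeR's quasi-likelihood test). It was the 1 call among the 8 members in this comparison, in which 0.106% of all tested genes were called. Leaving out single libraries gave differences from -2.03 to -1.74, but the call was lost without GFP+ Het replicate 1 (adjusted p = 0.104) or 2 (0.111) and without GFP+ KO replicate 2 (0.0615) or 3 (0.102). It was also lost when only these 2 groups were fitted (0.0574) and when replicate 2 of both groups was left out (0.226). With the recipient as a random block in limma-voom the log2 difference was -1.79 (adjusted p = 0.0396).

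Between the sorts of one mouse, Il12rb2 was lower in GFP+ cells of Het recipients and higher in GFP+ cells of KO recipients, by amounts that varied. GFP+ minus GFP- was -1.24, -1.0 and -0.04 on the log2 scale in Het recipients 1, 2 and 3, and 0.64, 0.37 and 0.41 in KO recipients 1, 2 and 3. Het recipient 3 showed almost no difference. The fitted log2 difference between the Het sorts was -0.76 (SE 0.24, adjusted p = 0.104), and the recipient as a block gave -0.75 (adjusted p = 0.0246). For the KO sorts it was 0.45 (SE 0.24, adjusted p = 0.327; 0.108 with the block). Whether the genotypes differ in this response was tested by the interaction of GFP and genotype, which gave -1.21 (SE 0.34, adjusted p = 1.00) and with the block -1.22 (adjusted p = 0.255). The interaction passed the threshold only without Het recipient 3, in the fit with the block (adjusted p = 0.0435). A two-sided exact permutation test of 3 Het against 3 KO recipients gave p = 0.1, the smallest that this design allows.

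Il12rb1, the shared chain, had overlapping levels throughout. Its level was 111, 66.6 and 74.0 CPM in GFP- Het, 202, 94.3 and 82.4 CPM in GFP+ Het, 74.5, 97.8 and 104 CPM in GFP- KO and 72.9, 111 and 148 CPM in GFP+ KO libraries. No comparison separated the groups, with GFP+ Het replicate 1 the highest library. The log2 difference between the Het sorts was 0.60 (SE 0.35, adjusted p = 0.310), which the block made 0.51 (adjusted p = 0.0430). This rested on recipient 1: without GFP+ Het replicate 1 the difference was 0.058 (adjusted p = 0.949), and with the block and without recipient 1 it was 0.31 (adjusted p = 0.308). The call with the block was also lost without recipient 2 (adjusted p = 0.180). Between the GFP+ groups it was 0.20 (SE 0.35, adjusted p = 1.00). The ratio of Il12rb1 to Il12rb2 per kilobase was 1.27 to 1.81 in GFP- Het, 2.07 to 6.90 in GFP+ Het, 1.04 to 1.21 in GFP- KO and 0.760 to 1.19 in GFP+ KO libraries. The 3 GFP+ Het ratios lay above all others, and within that group they spread widely. Il12rb1 lies at chr8:70808449-70821424 (plus strand) and Il12rb2 at chr6:67291318-67376188 (minus strand) in the deposited annotation, on mm10. In GENCODE M21 Il12rb2 overlaps Serbp1 on the opposite strand, but the exons deposited for the counting shared 0 bases. Serbp1 itself was at 158 to 241 CPM in GFP+ Het and 149 to 301 CPM in GFP+ KO libraries, with overlapping groups.

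Il18r1, the ligand-binding chain of the IL-18 receptor, was the member with the firmest change between the Het sorts. It stood at 897, 947 and 663 CPM in the GFP- Het libraries and at 338, 318 and 296 CPM in the GFP+ Het ones. Every GFP+ library lay well below every GFP- one. The log2 difference was -1.40 (SE 0.18, adjusted p = 0.0030), and it passed the threshold under all 20 alternatives run for this comparison, with values from -1.52 to -1.27. It was the 1 call among the 8 members without the block, where 3.45% of all tested genes were called. In these sorted bulk samples fewer cells of a type and less RNA per cell cannot be told apart. Expression in the KO sorts was 478, 652 and 547 CPM in GFP- and 368, 355 and 353 CPM in GFP+ libraries, again without overlap. The log2 difference there was -0.64 (SE 0.18, adjusted p = 0.185), and -0.63 with the block (adjusted p = 0.0226). The GFP+ groups differed little, by -0.18 (SE 0.18, adjusted p = 1.00). Between the GFP- groups Het exceeded KO by 0.58 (SE 0.18, adjusted p = 0.871). The interaction of GFP and genotype was -0.76 (SE 0.25, adjusted p = 1.00; 0.463 with the block), so the larger fall in Het than in KO recipients did not pass a test of the difference.

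Il18rap, the accessory chain without which IL-18 does not signal, reached levels like those of Il18r1, with a different pattern over the groups. Its level was 845, 669 and 983 CPM in GFP- Het and 497, 367 and 603 CPM in GFP+ Het libraries. In KO cells it was 866, 698 and 1036 CPM in GFP- and 1084, 657 and 695 CPM in GFP+ libraries. The Het sorts did not overlap, the KO sorts did, and all GFP+ Het libraries lay below all GFP+ KO ones. The log2 difference between the Het sorts was -0.77 (SE 0.26, adjusted p = 0.122), and with the block -0.78 (adjusted p = 0.0116). For the KO sorts it was -0.09 (SE 0.26, adjusted p = 0.865), and its sign turned when GFP- KO replicate 3 (0.07) or GFP+ KO replicate 2 (0.04) was left out. GFP+ Het minus GFP+ KO was -0.73 (SE 0.26, adjusted p = 0.600). The ratio of Il18rap to Il18r1 per kilobase ran from 0.504 to 1.06 in GFP- Het, 0.823 to 1.45 in GFP+ Het, 0.763 to 1.35 in GFP- KO and 1.32 to 2.10 in GFP+ KO libraries.

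Il1rl1, which encodes the IL-33 receptor chain ST2, was lowest in the same group as Il12rb2. It had 63.5, 37.1 and 64.5 CPM in GFP- Het and 19.7, 17.5 and 52.0 CPM in GFP+ Het libraries, where replicate 3 lay within the GFP- range. GFP- KO libraries had 57.2, 75.1 and 59.2 CPM and GFP+ KO ones 75.8, 93.4 and 59.4 CPM. Within recipients the log2 difference was -1.68, -1.07 and -0.31 in Het and 0.40, 0.31 and 0.01 in KO mice. All 3 GFP+ Het libraries were below all 3 GFP+ KO ones, by -1.30 on the log2 scale (SE 0.37, adjusted p = 0.361). GFP+ Het replicate 3 decided this result: without it the difference was -2.01 (adjusted p = 0.0470). The Het sorts differed by -0.85 (SE 0.37, adjusted p = 0.190), by -1.52 without that library (adjusted p = 0.0248), and by -1.0 with the block (adjusted p = 0.0107). The KO sorts differed by 0.24 (SE 0.36, adjusted p = 0.725). The interaction of GFP and genotype was -1.09 (SE 0.51, adjusted p = 1.00), or -1.24 with the block (adjusted p = 0.320), and the exact permutation test of 3 against 3 recipients again gave its smallest value, p = 0.1. Across the 12 libraries the log2 levels of Il1rl1 and Il12rb2 correlated with r = 0.81, a description over libraries that share recipients and sorts.

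Markers of cells known for ST2, and of NK cells, which carry IL-12 and IL-18 receptors and remain in the host, were read beside these values. The 8 regulatory T and T helper 2 markers summed to 79.6 to 138 CPM in GFP- Het, 132 to 253 in GFP+ Het, 72.5 to 128 in GFP- KO and 54.2 to 96.7 CPM in GFP+ KO libraries, so their sum was highest in the group where Il1rl1 was lowest. That sum is mostly Ikzf2 in GFP+ Het libraries (96.0 to 203 CPM, against 16.9 to 27.5 CPM in GFP- Het ones). Of that list, Il4 and Il13 were at 0 in GFP+ Het and Il5 and Il13 at 0 in GFP+ KO cells. Foxp3, the regulatory T cell factor, was at 0.779 CPM or less in GFP+ Het libraries. Gata3, the T helper 2 regulator, was at 54.3 to 105 CPM in GFP- Het and 31.1 to 49.5 CPM in GFP+ Het libraries. With the block Gata3 was called lower in the GFP+ sort of Het (-0.90, adjusted p = 0.0068) and KO recipients (-0.70, adjusted p = 0.0339). Ccr8 was as well (-1.04, adjusted p = 0.0435, and -1.64, adjusted p = 0.0106). Ikzf2 was called higher in Het recipients (2.58, adjusted p = 1.12e-04) and not in KO ones (0.27, adjusted p = 0.470). Foxp3 was called in neither genotype. That fit called 22.2% and 17.7% of all tested genes. The 9 mast cell, basophil and eosinophil markers summed to 4.44 to 20.2 CPM in GFP- Het, 14.9 to 70.5 in GFP+ Het, 1.06 to 23.9 in GFP- KO and 2.02 to 57.7 CPM in GFP+ KO libraries, with Epx at 0 in the last group. The 4 NK markers summed to 7.68 to 24.3 CPM in GFP- Het, 9.32 to 46.2 in GFP+ Het, 7.79 to 15.5 in GFP- KO and 9.77 to 29.2 CPM in GFP+ KO libraries, none at 0 in any group; Tyrobp, which myeloid cells share, made up most of the larger sums, and Ncr1 reached at most 3.56 CPM. The part of these cells in the Il1rl1, Il12rb2 and IL-18 receptor results was not tested.

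Stat4, the transcription factor that IL-12 activates, was lower in GFP+ Het cells in the fit with the block. It had 117, 142 and 109 CPM in GFP- Het and 86.7, 87.7 and 82.1 CPM in GFP+ Het libraries, with no overlap. GFP- KO libraries had 123, 113 and 104 CPM and GFP+ KO ones 113, 89.8 and 73.2 CPM, with overlap. The log2 difference was -0.52 between the Het sorts (SE 0.17, adjusted p = 0.117; 0.0202 with the block) and -0.30 between the KO sorts (SE 0.17, adjusted p = 0.361; 0.113 with the block). The number of members called with the block in the Het sorts fell when any Het recipient was left out, as counted below. The GFP+ groups differed by -0.11 (SE 0.18, adjusted p = 1.00). Stat4 lies at chr1:51987148-52107189 (plus strand). It shares 1033 of its 3872 exon bases with the noncoding gene Gm28177 on the same strand, which had 210 counts over all libraries, so reads there may have been left out of both.

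With the recipient as a block, the chains of the interferon gamma receptor changed in opposite directions between the sorts, Ifngr1 down and Ifngr2 up, though in KO mice the Ifngr2 call was lost without recipient 2 or 3. Ifngr1, the ligand-binding chain, had 479, 657 and 969 CPM in GFP- Het and 246, 229 and 357 CPM in GFP+ Het libraries. In KO cells it had 595, 506 and 511 CPM in GFP- and 309, 101 and 163 CPM in GFP+ libraries. Neither pair of sorts overlapped, and the lowest value, GFP+ KO replicate 2, rested on 142 counts. The log2 difference was -1.34 between the Het sorts (SE 0.36, adjusted p = 0.0652) and -1.48 between the KO sorts (SE 0.37, adjusted p = 0.169). With the recipient as a block these were -1.31 (adjusted p = 0.00246) and -1.61 (adjusted p = 0.00202). Without GFP+ KO replicate 1 the unblocked difference in KO cells was -2.01 (adjusted p = 0.0167). Between the GFP+ groups Het minus KO was 0.53 (SE 0.36, adjusted p = 0.930), and the interaction was 0.14 (SE 0.51, adjusted p = 1.00), with a sign that turned in some alternatives.

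Ifngr2, the chain that recruits JAK2, was the least abundant member; it lies at chr16:91547072-91565169 and Ifngr1 at chr10:19591949-19610229, both on the plus strand. It had 1.20, 1.70 and 3.97 CPM in GFP- Het, 4.13, 12.1 and 13 CPM in GFP+ Het, 1.30, 2.43 and 0.546 CPM in GFP- KO and 1.70, 9.27 and 1.88 CPM in GFP+ KO libraries. The Het sorts did not overlap, and GFP+ KO replicate 2 (13 counts) stood apart from the other KO libraries. The log2 difference was 2.06 between the Het sorts (SE 0.73, adjusted p = 0.133; 0.00274 with the block) and 1.25 between the KO sorts (SE 0.80, adjusted p = 0.401; 1.36 and 0.0471 with the block). In the KO sorts this rested on few libraries: without GFP+ KO replicate 2 the difference was 0.34 (adjusted p = 0.876), and the call with the block was lost without recipient 2 (1.04, adjusted p = 0.235) or recipient 3 (1.17, adjusted p = 0.284). The GFP+ groups differed by 1.51 (SE 0.79, adjusted p = 0.854). The ratio of Ifngr1 to Ifngr2 per kilobase was 284 to 463 in GFP- Het against 22.1 to 69.4 in GFP+ Het libraries, and 242 to 1090 in GFP- KO against 12.7 to 211 in GFP+ KO libraries. RNA of myeloid cells, which express both chains, moved with Ifngr2. All 8 myeloid markers (Lyz2, Csf1r, Cd68, Itgam, Adgre1, Cst3, S100a8 and S100a9) were counted in every library, and none was at 0. Their sum was 207 to 1553 CPM in GFP- Het, 466 to 3445 in GFP+ Het, 87.5 to 639 in GFP- KO and 286 to 1213 CPM in GFP+ KO libraries, and it was higher in the GFP+ sort of all 6 recipients. The single markers did not all rise. With the block 5 of the 8 were called higher between the Het sorts, and 6 higher and 1 lower between the KO sorts. The tested genes most like Ifngr2 over the 12 libraries were Aldh2, Prom1 and Itgam (r = 0.98 each). The part of myeloid RNA in the Ifngr2 result was not tested. Between the sorts the sum moved the opposite way to Ifngr1. Within groups the order of the libraries in Ifngr1 followed that of the sum in GFP- Het only. The part of myeloid RNA in the Ifngr1 result was not tested either.

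**Figure D2:**
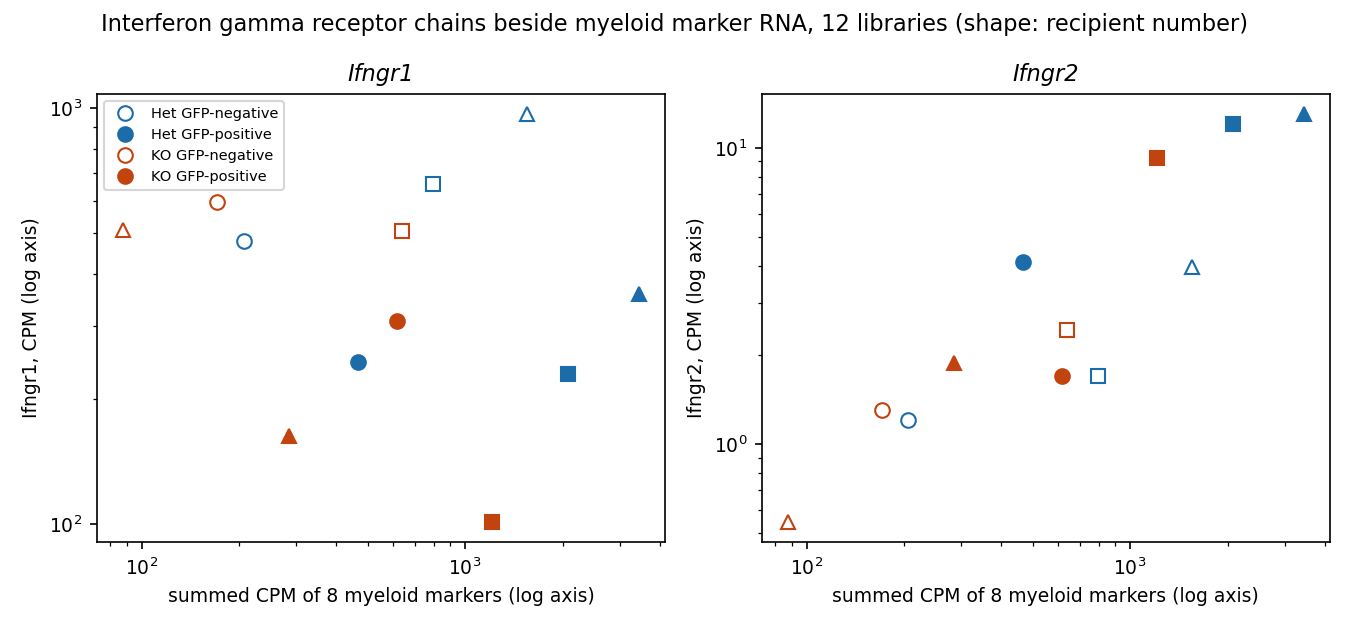
Ifngr1 (left) and Ifngr2 (right) in CPM against the summed CPM of 8 myeloid markers, both on log axes, in 12 libraries; filled symbols are GFP+, open ones GFP-, and the shape gives the recipient number. The 3 libraries with the most Ifngr2 (9.27 to 13 CPM) were GFP+ and had marker sums of 1213 to 3445 CPM. Ifngr1 was lower in GFP+ than in GFP- libraries at like sums. The part of myeloid RNA was not tested for either gene.

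Read within each mouse, 4 of the 8 members moved the same way in all 6 recipients. Il18r1 (mean log2 difference -1.01 ± 0.46, SD, n = 6), Stat4 (-0.42 ± 0.19) and Ifngr1 (-1.47 ± 0.51) were lower in the GFP+ sort of 6 of 6 recipients, and Ifngr2 (1.62 ± 0.76) was higher in 6 of 6. A two-sided exact sign-flip permutation test over 6 recipients gave p = 0.031 for each, the smallest value possible; 8 genes were tested and these p-values are not adjusted. Of all tested genes, 37.6% moved one way in all 6 recipients, so that a share of 4 in 8 is near the background. Il18rap was lower in 5 of 6 recipients (exact permutation p = 0.094), with KO recipient 1 the exception at 0.33. Il12rb1 was higher in 5 of 6 (exact permutation p = 0.0625). Il12rb2 and Il1rl1 were lower in 3 of 3 Het and higher in 3 of 3 KO recipients, a pattern that 1.21% of all tested genes showed. For both, the smallest step was close to 0: the difference of Il12rb2 was -0.04 in Het recipient 3, and Il1rl1 was 0.01 higher in KO recipient 3.

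**Figure D3:**
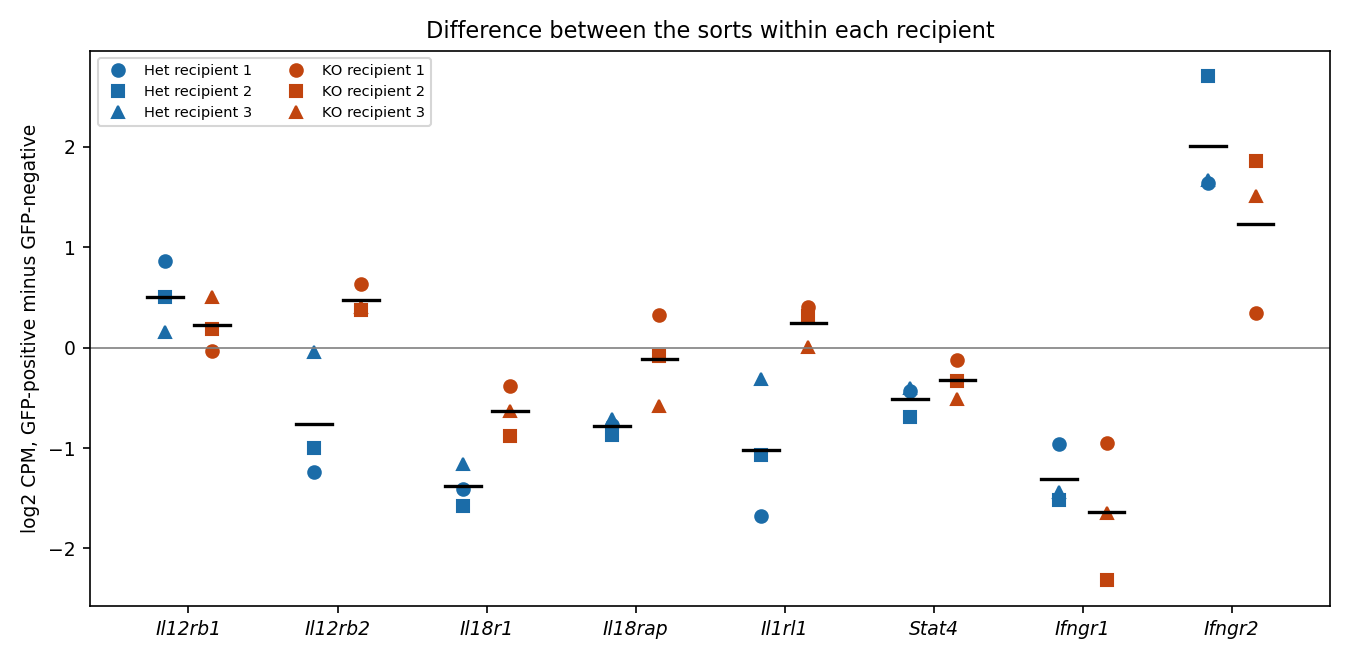
Log2 CPM of the GFP+ minus the GFP- sort in each of 6 recipients for the 8 genes; black bars are means of 3 recipients. Il18r1, Stat4 and Ifngr1 lie below 0 and Ifngr2 above 0 in all 6, while Il12rb2 and Il1rl1 lie below 0 in Het and above 0 in KO recipients.

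Counted over the members, the comparison of the Het sorts, which asks what marks cells that express Eomes, held the most differences. There 6 members had a negative and 2 a positive log2 difference, with a median of -0.76 against -0.02 over all tested genes. The 6 CD4 T cell markers had a median of -0.72 in the same libraries (-0.69 with the block), nearly as low as the members'. Within that list Cd3e had a positive difference (0.28, and 0.32 with the block) and Trac a negative one (-0.31 and -0.37), neither called. The part of the CD4 T cell markers, and that of the erythroid RNA that was higher in these libraries, in the members' differences was not tested. Without the block 1 of 8 was called, and 3.45% of all genes. DESeq2 called 5, and 5.02% of its 23665 genes. Its shares include genes of low count and so are not directly comparable with those over the 13238 filtered genes. With the block 8 of 8 were called (6 lower and 2 higher), where 22.2% of all genes were called. That count rests on all 3 Het recipients: with the block and without recipient 1 or without recipient 2 it was 3, and without recipient 3 it was 6. The Het sorts did not overlap for 6 of 8 members, against 27.3% of all genes. In the KO sorts edgeR called 0 of 8 without the block, with 2 at an unadjusted p under 0.05 (Il18r1 and Ifngr1) and 0.128% of all genes called. DESeq2 called these 2, and 1.65% of all its genes. The block called 3 of 8 there (Il18r1 and Ifngr1 lower, Ifngr2 higher), against 17.7% of all genes, a count that became 1 without recipient 2 or recipient 3. The KO sorts did not overlap for 3 of 8, against 20.3% of all genes. The median over members was 0.07 in the KO sorts.

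The comparisons of genotypes held fewer. Between the GFP+ groups 4 of 8 members (Il12rb2, Il18r1, Il18rap and Il1rl1) were lower in Het cells without overlap, against 7.48% of all genes in either direction, and 1 of 8 was called, by edgeR and by DESeq2, which called 0.401% of all its genes. Between the GFP- groups edgeR called 0 of 8 and 0.0% of all genes; 2 members had an unadjusted p under 0.05 (Il12rb2 and Il18r1), DESeq2 called 0 (0.19% of all its genes) and limma-voom with quality weights called 1 (Il18r1, with 0.612% of all genes). Only Il18r1 did not overlap there, where 11.3% of all genes did not. The interaction of GFP and genotype called 0 of 8 and 0.00755% of all genes, or 0 of 8 and 0.0755% with the block; 2 members had an unadjusted p under 0.05 in edgeR without the block (Il12rb2 and Il18r1), and DESeq2 called 0 and 0.0465% of all its genes. These comparisons share libraries: the GFP+ Het group stands in the Het sort, genotype and interaction comparisons, so the lower Il12rb2 in each is partly the same 3 libraries.

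**Figure D4:**
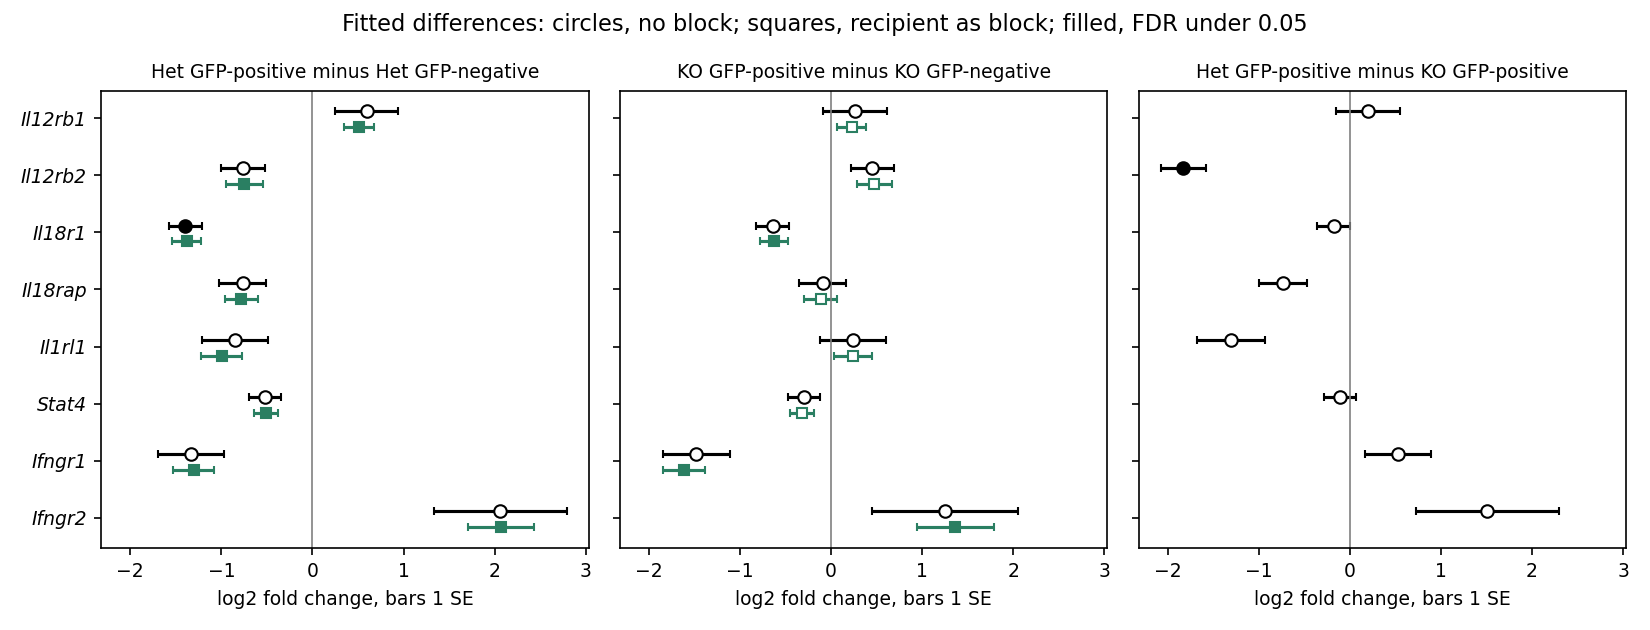
Fitted log2 fold change with 1 SE for the 8 genes in 3 comparisons: circles without and squares with the recipient as a block (not available between genotypes), filled where the adjusted p is under 0.05. Il18r1 is filled at -1.40 between the Het sorts and Il12rb2 at -1.83 between the GFP+ groups; the block fills all 8 genes in the Het sorts and 3 in the KO sorts.

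Il1rl1, Il18r1 and Il18rap are consecutive genes on chromosome 1 of GRCm38, all on the plus strand, and follow Il1r2, Il1r1 and Il1rl2 of the same receptor family. Il1rl1 (40429570 to 40465415) ends 136 bases before Il18r1 (40465552 to 40500854) begins, and Il18rap (40515362 to 40551705) starts 14507 bases beyond its end. The 6 neighbours had different patterns. Il1r1, the signalling receptor of IL-1, was lower in the GFP+ sort: it had 54.8 to 81.7 CPM in GFP- Het and 3.86 to 5.93 CPM in GFP+ Het libraries, a log2 difference of -3.73 (SE 0.58, adjusted p = 0.0073), and was lower in 6 of 6 recipients. In KO sorts it differed by -3.00 (SE 0.59, adjusted p = 0.0939; 0.0031 with the block). Il1rl2, the IL-36 receptor chain, differed by -0.51 between the Het sorts (SE 0.36, adjusted p = 0.404), and Il1r2, the decoy receptor, by 0.66 (SE 0.59, adjusted p = 0.518). Between the GFP+ groups Il1r1 differed by only 0.03 (SE 0.62, adjusted p = 1.00), where Il1rl1 differed by -1.30.

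**Figure D5:**
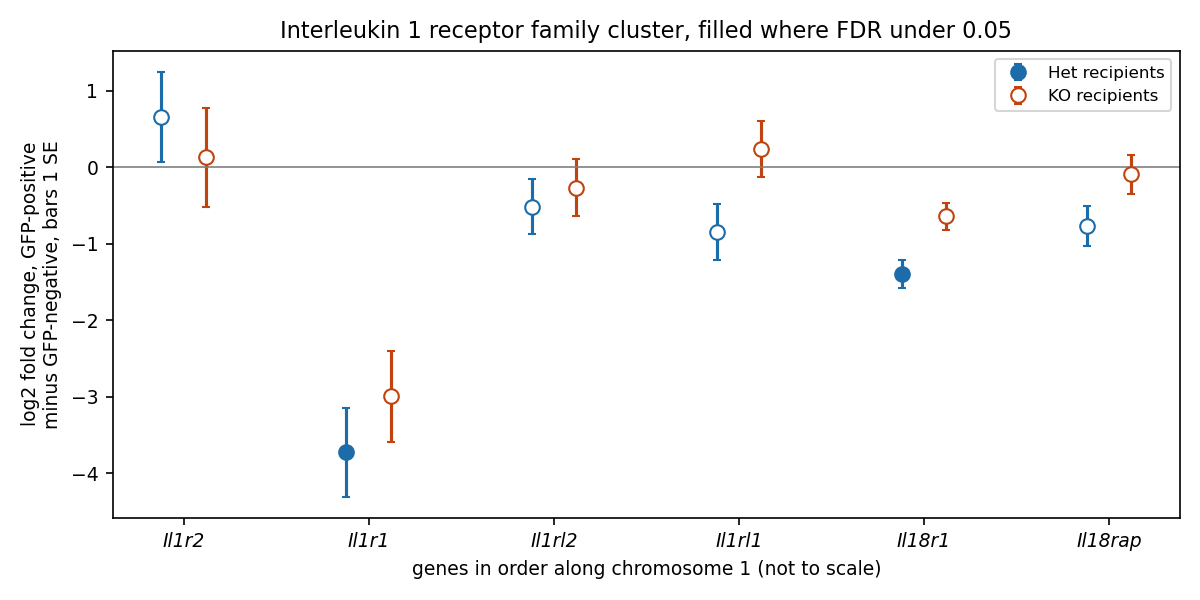
Log2 fold change of the GFP+ against the GFP- sort with 1 SE for 6 neighbouring receptor genes in their order on chromosome 1 (not to scale), in Het and KO recipients, filled where the adjusted p without a block is under 0.05. Il1r1 (-3.73) and Il18r1 (-1.40) are filled in Het recipients, and Il1rl1 lies on either side of 0 in the 2 genotypes.

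The rest of the pathway was read from lists of genes around these receptors. Of 18 kinases, adaptors and STATs, none passed the threshold in any comparison without the block. With it, 3 were called higher and 1 lower between the Het sorts, and 1 higher and 1 lower between the KO sorts. Among those higher in the Het sorts were Gadd45b, a STAT4-linked activator of p38 (0.82), and Tyk2 (0.69). Myd88 was lower there (-0.45), and the list's median was 0.17 against -0.02 over all genes. The block called 22.2% of all genes between the Het sorts and 17.7% between the KO sorts. Among 7 brakes of cytokine signalling, Socs2 was lower in GFP+ Het than in GFP- cells (-1.97, SE 0.32, adjusted p = 0.0080), as was the phosphatase gene Ptpn2 (-0.89, SE 0.21, adjusted p = 0.0394), a call lost without any 1 of the Het libraries other than GFP- replicate 1. Between the KO sorts Socs2 differed by -1.70 (SE 0.32, adjusted p = 0.0824), and by -1.64 with the block (adjusted p = 0.0038). Ptpn2 differed by -0.41 there (SE 0.21, adjusted p = 0.313). Socs3, an inhibitor of cytokine receptors that docks on gp130 and on IL-12Rβ2, was the 1 brake called between the GFP+ groups. It had 96.9, 63.1 and 86.8 CPM in GFP+ Het and 14.7, 19.2 and 25.5 CPM in GFP+ KO libraries, a log2 difference of 2.05 (SE 0.27, adjusted p = 0.0136), opposite in sign to Il12rb2. That call was lost in 5 of 15 alternatives, among them without GFP+ Het replicate 1 or GFP+ KO replicate 1 or 2 (adjusted p up to 0.108). With the block, Socs2, Ptpn2 and Ptpn6 (-0.52, adjusted p = 0.0358) were called lower between the Het sorts, and Socs3 higher (0.78, adjusted p = 0.0249). Between the KO sorts the block called Socs2 alone of the brakes, and Socs3 differed by -0.71 (adjusted p = 0.0609).

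RNA of most ligands was at or near 0 in these cells. Of 8 ligand and binder genes 3 were tested (Ifng, Il1b and Il18bp); Il12a, Il12b, Il23a, Il18 and Il33 stood at 0.895 CPM or less in every library. Ifng, the product of this axis, had 151, 149 and 184 CPM in GFP- Het and 62.9, 53.4 and 117 CPM in GFP+ Het libraries, without overlap, and 133, 160 and 157 CPM in GFP- KO against 175, 71.3 and 88.2 CPM in GFP+ KO libraries. Its log2 difference was -1.04 between the Het sorts (SE 0.33, adjusted p = 0.106; -1.12 and 0.0113 with the block). Il1b, a myeloid cytokine, was called between the Het sorts (2.82, SE 0.71, adjusted p = 0.0497), a call lost in 8 of 20 alternatives, 5 of them without 1 library (GFP- Het 1, 2 or 3, GFP+ Het 2 or 3). Tbx21, which encodes T-bet, differed by -0.06 between the Het sorts (SE 0.32, adjusted p = 0.937) and by -0.93 between the GFP+ groups (SE 0.33, adjusted p = 0.585).

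Of 10 genes that STAT4 or T-bet is known to induce, Ccl3 was called between the Het sorts (3.16, SE 0.70, adjusted p = 0.0320), with 12.7 to 80.7 CPM in GFP+ and 1.16 to 5.84 CPM in GFP- libraries; 5 of 20 alternatives lost this call (only these groups fitted, or without GFP- Het 1, 2 or 3 or GFP+ Het 3). With the block 5 of the 10 were higher (Ccl3, Ccl4, Ccl5, Hlx and Runx3) and 2 lower (Ifng and Furin). That fit called 22.2% of all genes between the Het sorts. Granulocyte and macrophage RNA also holds Ccl3 and Ccl4, and the myeloid marker sum was higher in the same libraries; its part was not tested. In the pathway lists Ccl5 was the 1 gene called for the interaction with the block (2.51, adjusted p = 0.0359); of the regulatory T and T helper 2 markers Ikzf2 was called as well (2.32, adjusted p = 0.0365). Of 15 genes induced by interferon gamma 14 were in the table. Irf1 was higher in GFP+ Het cells (0.90, SE 0.18, adjusted p = 0.0192), a call lost without GFP- Het replicate 2 or GFP+ Het replicate 1 (adjusted p up to 0.110). With the block 6 of the 14 were called higher between the Het sorts, among them Irf1, Gbp3, Nlrc5, Tap1 and Psmb9. No gene of the list was called lower, and the median was 0.33 against -0.02 over all genes. Irf1 thus had 416 to 553 CPM in the cells with 229 to 357 CPM of Ifngr1, and 226 to 291 CPM in the cells with 479 to 969 CPM.

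Among 15 related receptor chains, Il10ra (2.33, SE 0.29, adjusted p = 0.0022), Il4ra (0.99, SE 0.17, adjusted p = 0.0102) and Ifnar2 (0.90, SE 0.17, adjusted p = 0.0144) were higher and Il1r1 lower between the Het sorts; the Il4ra call was lost without GFP- Het replicate 2, and the Ifnar2 call without that library or GFP+ Het replicate 1. With the block 7 were higher and 2 lower, the second being Il23r (-2.54, adjusted p = 0.0032), which pairs with IL-12Rβ1 to bind IL-23. The share of all genes called there with the block was 22.2%. In the KO sorts the block called Il10ra (0.92), Il4ra (0.57) and Il6st (0.60) higher and Il1r1 lower, against 17.7% of all genes.

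The genes whose log2 levels were most like each member over the 12 libraries were found among all tested genes. For Il12rb2 these were Zfp683, which encodes the transcription factor HOBIT (r = 0.93), Crybg2 (0.93) and 5930412G12Rik (0.92). For Il18r1 they were Clint1, Ppm1k (0.95 each) and Sgms1 (0.95), for Ifngr1 Rwdd1, Zfp770 (0.98 each) and Rnf138 (0.98), and for Il1rl1 Cdc42ep1 (0.92), Pter (0.90) and Zfp36l1 (0.88). For Stat4 they were Gm25541 (0.96), Morc1 (0.95) and Rnu12 (0.94), for Il18rap Tmem209, Commd3 and Gm28347 (0.91 to 0.92), and for Il12rb1 Thap4 (0.96), Llgl2 and 1810062O18Rik (0.93 and 0.92). The points share recipients, sorts and depth.

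The authors' deposited tables list only genes with an adjusted p under 0.05. In the authors' deposited table for the Het sorts 5 members appear among 1406 genes: Il18r1 (log2 fold change -1.35), Ifngr1 (-1.25), Ifngr2 (1.59), Il18rap (-0.74) and Il12rb2 (-0.72). The authors' deposited table for the GFP+ groups lists 77 genes and of the members Il12rb2 alone, at 1.65 (adjusted p = 1.23e-09), with a positive sign for the higher level in KO cells. The authors' deposited table for the KO sorts lists 388 genes, among them Ifngr1 (-1.23) and Il18r1 (-0.62). DESeq2 on all libraries gave the same 5, 1 and 2 members, among 1189, 95 and 390 genes called.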

How the data were processed

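RNA was sequenced from 12 libraries in 4 groups of 3 (total RNA, ribosomal RNA depleted, stranded kit, per the labels' protocols). The deposited values are raw counts per gene made by the authors; the submitters' processing notes name bcl2fastq 1.8.4, TopHat2 2.0.13, featureCounts 1.5.0-p1, DESeq2 1.6.1 and mm10, and the strand setting of the counting is not given in the sources used here. Exon lengths came from the same deposited count files. The authors' deposited comparison tables hold a mean normalized signal, a log2 fold change, its standard error and test statistic (scores) and p-values.

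The members and gene lists were chosen with earlier results of these data known. All genes of every list were followed. In the pathway lists, genes are named where they passed the threshold without the block. The 8 members, Eomes, Tbx21 and the 3 genes most like each member are named as well. Genes called only with the block, and cell type markers, are named in part. Some list genes are not reported here. Counts were fitted with edgeR 4.0.16 (R 4.3.3): TMM factors, a filter on low counts (minimum count 10, minimum total 15), group means over 12 libraries, the quasi-likelihood test and Benjamini-Hochberg adjustment over 13238 genes, with calls at 0.05. The common dispersion was 0.0835. CPM per kilobase divides CPM by exon length. Every adjusted p in the report comes from this edgeR fit unless limma 3.58.1 or DESeq2 1.42.0 is named. Because both sorts of 1 recipient share a number, a fit with the recipient as a block was made for comparisons between sorts; their deviations from the group means correlated at 0.241 to 0.617 in the 6 recipients. Genotypes share no recipient, so that contrast had a random block only (correlation 0.467). Exact sign-flip tests used all 64 flips of log2 CPM differences with a prior count of 2. Without a block the p-values measure the spread between the libraries of a group and leave out the pairing of the sorts. With the recipient as a block between sorts, and in the exact tests, they measure the spread of the differences within mice. The scripts were tested on simulated data. Symbols came from GENCODE M21 for 42462 of 43626 identifiers.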

Additional observations from a re-analysis of the deposited data

Results flagged for a closer look

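The mean sort difference of Il12rb2 (GFP+ minus GFP-, log2) in Het minus that in KO recipients was -1.23, with every Het recipient below 0 and every KO recipient above 0. The same held for Il1rl1, with -1.26. The two-sided exact permutation test of 3 against 3 recipients gave p = 0.1 for both, its smallest value, and the interaction of GFP and genotype in edgeR did not pass the threshold for either (adjusted p = 1.00 without and 0.255 and 0.320 with the block). Het recipient 3 had the smallest Het difference in both genes (-0.04 and -0.31).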

How the results depend on the processing

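The number of the 8 members called depended on the model for the comparisons between sorts. For the Het sorts it was 1, and it became 5 with DESeq2, 3 without the filter on low counts, 7 with limma-voom and quality weights, 2 with an offset for GC and length, 8 with the recipient as a replicate block and 7 with the block and that offset. The share of all genes called under these settings was 5.02%, 3.79%, 16.5%, 4.22%, 22.2% and 22.0%, against 3.45%. The shares for DESeq2 and for the fit without the filter are over 23665 and 23675 genes, the others over 13238. Leaving out 1 library or, in the blocked fit, 1 recipient gave 1 to 6. For the KO sorts it was 0, and became 2, 1, 4, 0, 3 and 4 under the same settings, where 1.65%, 0.849%, 43.9%, 0.151%, 17.7% and 17.9% of all genes were called against 0.128%, so that 4 of 8 in limma-voom is near its background. It was 0 to 3 with a library or recipient left out. Between the GFP+ groups the count of 1 became 0 with only those groups fitted and 0 to 2 without 1 library. Between the GFP- groups it was 0, or 1 in limma-voom with weights, and for the interaction 0, or 0 to 1 with a library or recipient left out. Alternatives chosen after seeing the data left out replicate 2 of both GFP+ groups (0 between the GFP+ groups) or both recipients numbered 2 in the blocked fit (3 for the Het and 1 for the KO sorts).

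Of the values for single members under these settings, 696 kept their direction and side of the threshold, 62 passed it where they had not, 6 no longer passed it and 20 changed sign, all of them uncalled. The sign changes in limma-voom with weights were Il12rb1 (-0.27) and Stat4 (0.16) between the GFP+ groups and Il12rb1 in the interaction (-0.13). Without replicate 2 of both GFP+ groups, Il18rap between the KO sorts became 0.036 and Ifngr1 in the interaction -0.032. With libraries or recipients left out, Il12rb1 ran from -0.33 to 0.48 between the GFP+ groups, from -0.036 to 0.51 between the KO sorts and from -0.19 to 0.62 in the interaction. Stat4 ran from -0.26 to 0.048 between the GFP+ groups and from -0.040 to 0.16 between the GFP- groups. Il18rap ran from -0.35 to 0.11 between the KO sorts and from -0.23 to 0.064 between the GFP- groups, and Ifngr1 from -0.15 to 0.67 in the interaction. The cause was not tested.

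Over all genes, 457 were called between the Het sorts, against 1189 with DESeq2, 897 without the filter and 2944 with the block; DESeq2 moved the median of all genes from -0.02 to 0.10 over its 23665 genes. The differences within recipients kept their direction and side of the threshold under every alternative run. Depth limits Ifngr2 (11 to 134 counts per library) and GFP+ KO replicate 2.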
